A study of Mus musculus with 12 samples.

Results

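The comparison described here sets mouse epidermis taken 2 h after wounding against epidermis taken 30 min after wounding, with 4 samples at 2 h (replicates 1 to 4) and 2 samples at 30 min (replicates 1 and 2), 6 of the 12 samples of the series. They were chosen by their titles. Both groups were wounded, so non-wounded skin is not one of the sides. The other samples are 4 non-wounded samples, 1 sample labelled 0 h and 1 sample taken 4 h after wounding. They serve below as reference values. They also entered the fit, where the non-wounded samples contribute to the estimate of the spread behind each SE and p-value. The titles begin with B6 in every group, and the labels give no other genotype, allele or agent, no age and no sex. Nothing in the labels ties a replicate to a mouse of its own; the p-values below therefore describe how far these particular samples scatter, and that scatter may be technical. The study's design text describes RNA from whole epidermis, most of whose cells are keratinocytes, with dendritic epidermal T cells (DETC) and Langerhans cells as the remainder, whereas the sample labels give the cell type as DETC. It places 30 min before, and 2 h during, the display of an unidentified DETC ligand on the cell surface, and this is the question behind setting the times against each other.

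Epidermal injury is answered first by the keratinocytes themselves. They release stored cytokines of the interleukin-1 family, cleave membrane-anchored growth factors of the epidermal growth factor (EGF) family from their surface, and switch on early response genes, after which newly made chemokines call leukocytes from the blood into the wound. DETC are resident gamma-delta T cells that touch keratinocytes and Langerhans cells and sense damaged neighbours through their T cell receptor and through receptors such as NKG2D.

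The array carried 1246 probe sets, chosen around glycan-synthesising enzymes, glycan-binding proteins, cytokines, chemokines, growth factors and their receptors. A single gene symbol could be given to 963 of them, covering 909 genes, and 283 had none. A listed gene counts as measured below only where a probe set had its symbol. The 283 may therefore hold further members of the gene and marker lists. The values are log2-scale RMA values, on which a difference of 1 is a doubling; levels of different probe sets cannot be set against each other. Before the times are compared, 1 feature of the samples has to be stated: the samples numbered 1 stood apart from the rest. The standard deviation over all probe sets was 1.56 to 1.59 in the samples numbered 1 and 2.19 to 2.23 in those numbered 2 to 4. At 30 min, replicate 1 minus replicate 2 had a median of 0.45 over the probe sets below the array's median level and of -0.79 over those above it; at 2 h, the corresponding medians for replicate 1 against the mean of replicates 2 to 4 were 0.39 and -0.83. Across probe sets, 30 min replicate 1 correlated with 2 h replicate 1 at r = 0.935 but with 30 min replicate 2 at r = 0.904, and 2 h replicates 2 to 4 correlated with one another at 0.991 to 0.995 but with 2 h replicate 1 at 0.909 to 0.912. These correlations are across genes, which are not independent replicates. Replicate 1 is 1 of 2 samples at 30 min but 1 of 4 at 2 h. A difference of group means therefore also carries part of its offset. That part runs upward for probe sets above the array's median level and downward for those below it. The genes described below are therefore given in most cases for the group means and for the like-numbered samples: 2 h replicate 1 minus 30 min replicate 1 (pair 1), and 2 h replicate 2 minus 30 min replicate 2 (pair 2).

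Between 30 min and 2 h the clearest differences were toward higher levels at 2 h, in genes for leukocyte attraction and attachment (Ccl20, Cxcl2, Cxcl1, Icam1), for EGF receptor and vascular signalling (Hbegf, Vegfa), for dendritic cell maturation (Cd83), and for glycan synthesis and binding (B4galt5, Csgalnact1, Lgals1). No probe set passed an adjusted p of 0.05 in either direction in limma's moderated test with Benjamini-Hochberg adjustment over all 1246 (0% called), and the smallest adjusted p was 0.370. At an unadjusted p under 0.05, 26 probe sets were higher at 2 h (2.09%) and 1 was lower (0.0803%), together 2.17%. Where no probe set differs, a share of about 0.05 falls under this threshold, more than was found here. By the sign of the mean difference alone, 631 were higher (50.6%). The 4 values at 2 h all lay above both values at 30 min in 47 probe sets (3.77%) and all lay below them in 21 (1.69%), in all 5.46%; when each sample was first brought to one median and standard deviation, these counts were 42 and 104, so the excess of higher over lower probe sets by this measure depends on the scaling. For a single probe set, an exact permutation test of 4 samples against 2 cannot give a two-sided p below 0.133. The probe sets that did not overlap were also unequal in size: those above ranged from 0.05 to 3.54 with a median of 0.54 and 13 of them at 1 or more, and those below ranged from -0.66 to -0.08 with none reaching 1 in size.

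Over most of the array the like-numbered pairs differed from each other. Over all probe sets the median difference was -0.04 in pair 1 and 0.02 in pair 2, with standard deviations of 0.57 and 0.30, and the pairs' differences correlated at r = 0.118 across probe sets. In 336 probe sets both pairs were higher at 2 h (27%), in 289 both were lower (23.2%), and in 621 they had opposite signs (49.8%). Differences of 1 or more in size occurred in 100 probe sets in pair 1 (8.03%) and in 14 in pair 2 (1.12%). Only 5 probe sets were 1 or more higher in both pairs (0.401%), and none was 1 or more lower in both (0%); at 0.5 or more the counts were 22 higher (1.77%) and 3 lower (0.241%). The 5 are Ccl20, Hbegf, Icam1 and the probe sets NM_020008.1_psr1_at and uc007bsm.1_psr1_s_at, which have no symbol in the tables used here. The values of uc007bsm.1_psr1_s_at followed those of Ccl20 sample by sample, so the 5 may not be separate genes.

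**Figure D1:**
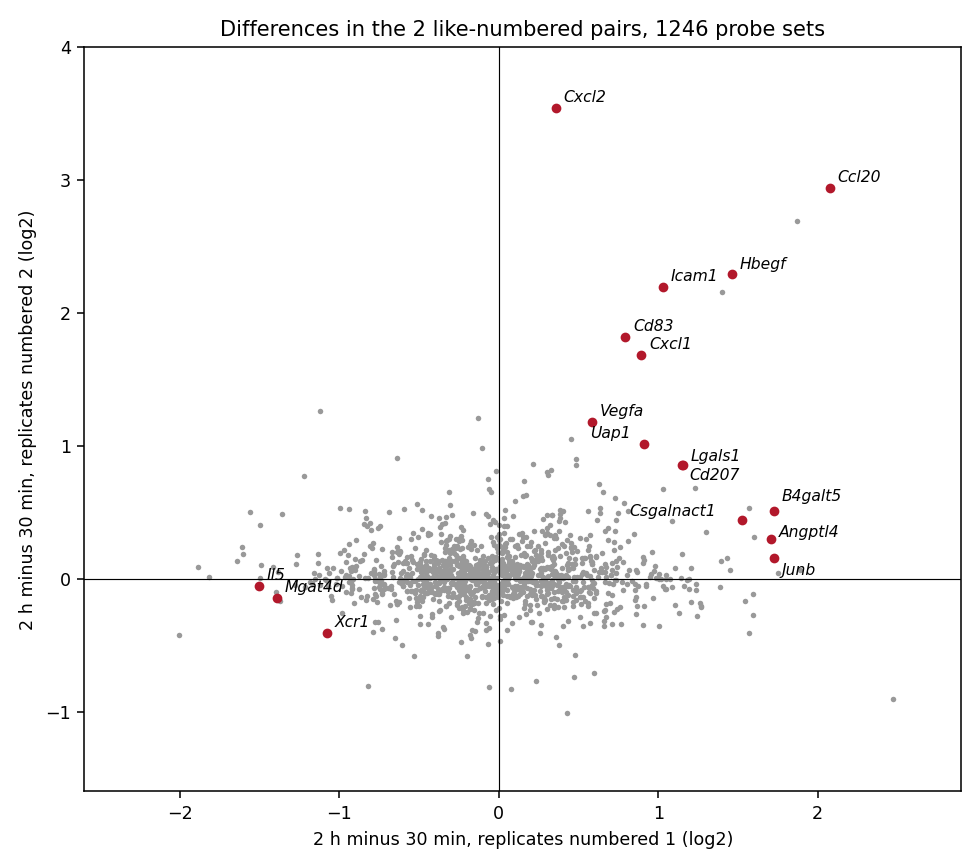
Each grey point is 1 of 1246 probe sets, placed by its log2 difference (2 h minus 30 min) in the samples numbered 1 on the horizontal axis and in those numbered 2 on the vertical axis; red points are genes named in the text. Ccl20, Hbegf and Icam1 lie at 1 or more on both axes, Cxcl2 is high on the vertical axis alone (3.54 against 0.36), and the cloud is wider along the horizontal axis (standard deviation 0.57) than along the vertical one (0.30).

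The 12 genes with the smallest p among those higher at 2 h were B4galt5, Ccl20, Icam1, Hbegf, Vegfa, Cxcl2, Cd83, Havcr2, Angptl4, Csgalnact1, Csf2ra and Lgals1. Their differences ran from 0.69 to 3.54 and their adjusted p-values from 0.475 to 0.621. None overlapped between the times, which their choice by smallest p in the same samples favours. Over all 909 genes, 37 lay wholly above (4.07%). Set beside the 4 non-wounded samples, they formed separate patterns. In 7 of the 12 all 2 h values lay above every non-wounded value. In 3 of the 12 (Csgalnact1, Csf2ra and Lgals1) both 30 min values instead lay below every non-wounded value, so that the difference between the times was one from a lower level at 30 min. The count past the adjusted threshold depended on which samples were used: it was 0 without 2 h replicate 2, 3 or 4, 9 without 2 h replicate 1, and 2 (Cxcl2 and NM_020008.1_psr1_at) in the samples numbered 2 to 4 alone. The 9, all higher at 2 h, were Cxcl2, Ccl20, Icam1, Cd83, Vegfa, Hbegf, Cxcl1 and the probe sets without a symbol named above. They are no independent support, since 2 h replicate 1 was the lowest of its group for these genes and its removal leaves 30 min replicate 1 without its like-numbered partner.

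**Figure D2:**
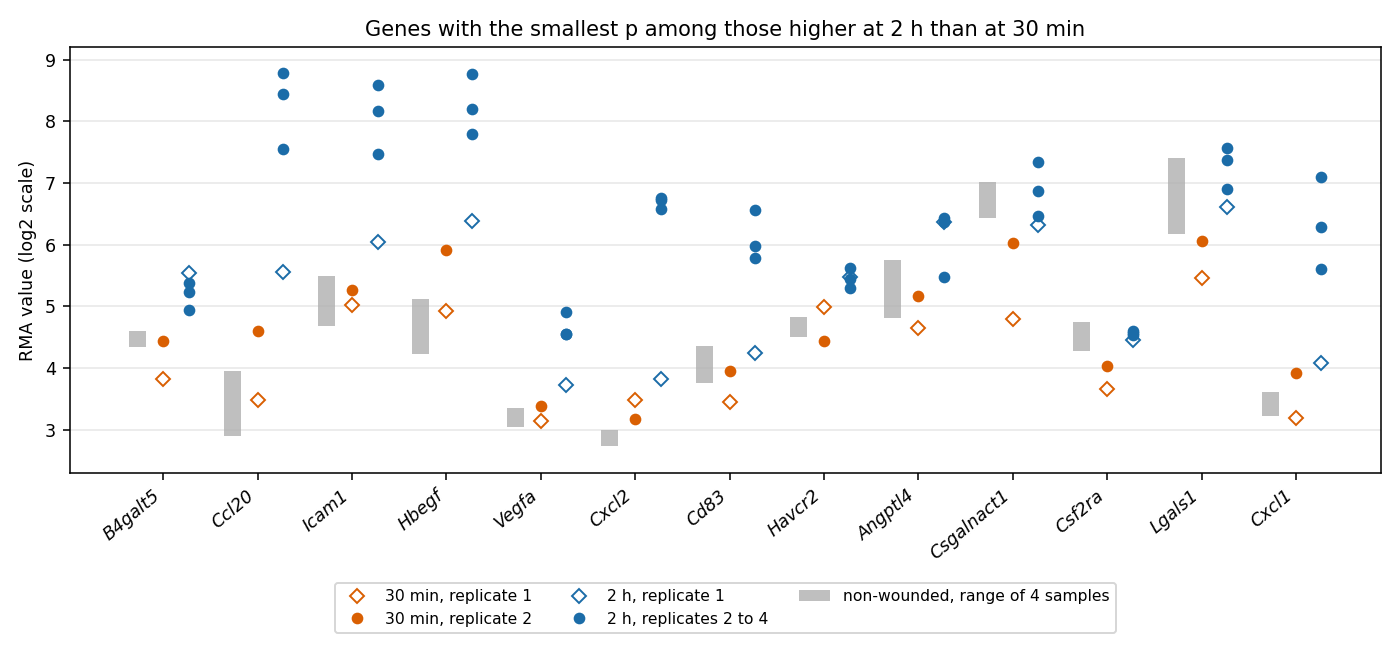
RMA values (log2 scale, vertical axis) of the 12 genes and Cxcl1. Grey bars span the 4 non-wounded samples, orange symbols are the 30 min samples and blue symbols the 2 h samples, with open diamonds for replicate 1. For Ccl20, Icam1, Hbegf and Cxcl2 the filled blue points lie between 6.58 and 8.78, far above both orange symbols, and for Csgalnact1, Lgals1 and Csf2ra the orange symbols lie below the grey bars.

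Promoter windows were searched for 5 of these genes, B4galt5, Ccl20, Icam1, Vegfa and Cxcl2. They were taken in order of p from those in the RefSeq table (GRCm38.p6), which held 7 of the 12. Sequences are shown for the 4 that held a motif match. B4galt5 has the smallest p of the 12, held no match and is not shown. Each line is the transcript strand read 5′ to 3′, from 250 bases before to 50 bases after the annotated start; capitals mark motif matches. The motifs searched, on both strands, were the kappaB motif GGGRNWYYCC, the CArG box, the AP-1 motif TGANTCA and the TATA box TATAAA. In these, R is A or G, W is A or T, Y is C or T, and N is any base.
Ccl20, chr1:83116516-83116815, plus strand: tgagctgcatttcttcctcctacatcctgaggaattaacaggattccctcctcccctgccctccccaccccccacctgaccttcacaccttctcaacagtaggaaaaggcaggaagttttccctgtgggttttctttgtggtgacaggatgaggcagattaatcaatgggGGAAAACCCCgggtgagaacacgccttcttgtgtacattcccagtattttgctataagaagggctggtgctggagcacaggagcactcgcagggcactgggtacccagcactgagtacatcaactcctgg
Cxcl2, chr5:90903649-90903948, plus strand: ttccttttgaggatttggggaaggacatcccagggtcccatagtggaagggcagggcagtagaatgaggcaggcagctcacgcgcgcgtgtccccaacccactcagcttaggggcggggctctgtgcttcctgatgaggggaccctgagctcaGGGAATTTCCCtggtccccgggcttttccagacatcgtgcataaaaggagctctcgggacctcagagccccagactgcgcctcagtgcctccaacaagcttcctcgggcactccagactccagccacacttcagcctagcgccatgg
Vegfa, chr17:46032328-46032627, minus strand: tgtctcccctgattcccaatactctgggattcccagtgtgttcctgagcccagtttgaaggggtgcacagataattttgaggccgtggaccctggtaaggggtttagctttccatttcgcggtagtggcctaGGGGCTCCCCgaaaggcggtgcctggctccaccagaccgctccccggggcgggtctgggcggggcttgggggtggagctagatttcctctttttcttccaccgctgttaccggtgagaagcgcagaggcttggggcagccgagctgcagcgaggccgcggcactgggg
Icam1, chr9:21015690-21015989, plus strand: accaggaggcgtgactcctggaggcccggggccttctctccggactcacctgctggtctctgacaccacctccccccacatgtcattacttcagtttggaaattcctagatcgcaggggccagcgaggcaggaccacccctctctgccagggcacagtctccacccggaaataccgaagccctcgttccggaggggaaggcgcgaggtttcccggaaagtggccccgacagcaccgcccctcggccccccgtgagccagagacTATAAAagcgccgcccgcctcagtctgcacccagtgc
The Ccl20 window held a kappaB match, GGAAAACCCC, 80 to 71 bases before the start. The Cxcl2 window held a pair of overlapping kappaB matches, GGGAATTTCC and GGAATTTCCC, between 97 and 87 bases before the start. The Vegfa window held GGGGCTCCCC, 118 to 109 bases before the start used here, the first of 2 in the table. In the Icam1 window the single match was TATAAA, 13 to 18 bases after the annotated start. The B4galt5 window held none of the motifs, and no AP-1 or CArG match was found in any of the 5. Of all 32851 promoter windows in the table, 4.51% held a kappaB match, 7.81% an AP-1 match, 13.6% the TATA box and 1.63% a CArG box. A match describes these letters and not a bound site. Stretches that depart from a pattern were not counted, so a window without a kappaB match, such as that of Icam1, may still hold a kappaB site.

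Among chemokines, Ccl20, which attracts cells bearing the receptor CCR6 such as dendritic cells and some lymphocytes, differed most between the times. Its values were 3.48 and 4.61 at 30 min and 5.56, 7.55, 8.78 and 8.44 at 2 h; the non-wounded samples had 3.91, 3.95, 2.91 and 3.19. Every 2 h sample stood above every 30 min and non-wounded sample, and 2 h replicate 1 was the lowest of its group. The difference was 3.54 ± 0.79 (SE; 4 against 2 samples), an 11.6-fold ratio, with an adjusted p of 0.475 in limma, and it was 2.08 in pair 1 and 2.94 in pair 2.

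Cxcl1 and Cxcl2, the chemokines that draw neutrophils through CXCR2, followed the same direction, with an unequal part of the samples numbered 1. Cxcl2 had 3.47 and 3.18 at 30 min and 3.83, 6.72, 6.76 and 6.58 at 2 h, against 2.73 to 2.99 without wounding. The 2 h samples numbered 2 to 4 were alike and high, while replicate 1 lay close to the 30 min samples, so that the difference was 0.36 in pair 1 and 3.54 in pair 2. Over all samples the difference was 2.65 ± 0.71 (adjusted p = 0.621, limma); it was 3.36 without 2 h replicate 1 (adjusted p = 2.87e-05), the low sample, and 3.51 in the samples numbered 2 to 4 alone (adjusted p = 5.85e-05). Cxcl1 had 3.19 and 3.92 at 30 min and 4.09, 5.60, 7.10 and 6.28 at 2 h, with non-wounded values of 3.23 to 3.62. Again no 2 h sample overlapped the 30 min samples and replicate 1 was the lowest; the difference was 2.21 ± 0.66 (adjusted p = 0.621, limma), with 0.89 in pair 1 and 1.69 in pair 2.

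The other measured neutrophil-attracting chemokines did not share this. Of the 6 on the list, 4 were higher and 2 lower at 2 h, the median difference was 0.07, and Cxcl1 and Cxcl2 alone had no overlap between the times; the lowest member was Cxcl15, whose values were 4.05 and 3.07 at 30 min and 3.01 to 3.08 at 2 h. Among 23 other chemokines, 14 were higher and 9 lower with a median of 0.07, close to the median of 0.05 over all 909 genes, of which 511 were higher (56.2%), 37 lay wholly above (4.07%) and 13 wholly below (1.43%). Besides Ccl20, Ccl25 lay wholly above and Cxcl13, which attracts B cells, wholly below; Cxcl13 had 3.18 and 2.76 at 30 min and 2.56 to 2.73 at 2 h. No member of any of the 24 gene lists or 7 marker lists passed the adjusted threshold.

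Icam1, the adhesion molecule that leukocytes grip through beta-2 integrins, had 5.02 and 5.27 at 30 min and 6.05, 7.47, 8.16 and 8.59 at 2 h, with 4.68 to 5.50 in non-wounded skin. The 30 min samples lay inside the non-wounded range and all 2 h samples above it. The difference was 2.42 ± 0.59, a 5.35-fold ratio (adjusted p = 0.475, limma), with 1.03 in pair 1 and 2.19 in pair 2. Of the 13 adhesion molecules and selectins measured, 8 were higher and 5 lower with a median of 0.02, and Icam1 was the single member without overlap.

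Among EGF family genes, the ligands Hbegf and Areg stood apart from the rest of the list. Hbegf, a heparin-binding ligand that drives keratinocyte migration, had 4.93 and 5.91 at 30 min and 6.39, 8.20, 7.80 and 8.77 at 2 h, with 4.22 to 5.13 without wounding. The 30 min replicate 2 was already above all non-wounded samples, and every 2 h sample was higher still. The difference was 2.37 ± 0.58, a 5.17-fold ratio (adjusted p = 0.475, limma), 1.46 in pair 1 and 2.29 in pair 2. Areg, which encodes amphiregulin, had 3.36 and 3.33 at 30 min and 3.52, 4.07, 4.47 and 4.98 at 2 h, above non-wounded values of 2.76 to 2.96 at both times. Its difference was 0.91 ± 0.34 (adjusted p = 0.980, limma), with 0.16 in pair 1 and 0.74 in pair 2. The other 4 of the 6 measured genes of the family were lower at 2 h, and the list's median was -0.18.

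Vegfa and Angptl4 led the angiogenic list. Vegfa, the main growth factor for blood vessel sprouting, had 3.14 and 3.38 at 30 min and 3.73, 4.56, 4.54 and 4.91 at 2 h, with 3.05 to 3.35 without wounding. The 30 min values were thus close to the non-wounded range and the 2 h values lay above it. The difference was 1.17 ± 0.30 (adjusted p = 0.517, limma), 0.58 in pair 1 and 1.18 in pair 2. Angptl4, a secreted inhibitor of lipoprotein lipase that also acts on vessels, had 4.65 and 5.17 at 30 min and 6.36, 5.47, 6.37 and 6.43 at 2 h. Here 2 h replicate 2 was the low sample, so that the difference of 1.25 ± 0.35 (adjusted p = 0.621, limma) was made up of 1.71 in pair 1 and 0.30 in pair 2, the reverse of the order in Vegfa. Non-wounded values of Angptl4 ran from 4.81 to 5.75, and the lowest 2 h value lay inside that range. Of the 12 angiogenic factors and receptors, 9 were higher and 3 lower, with a median of 0.10; Angptl7 lay wholly below, at 4.61 and 4.07 at 30 min and 3.73 to 4.04 at 2 h.

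Of the first-line cytokines, none separated the times. Il1a, the stored keratinocyte alarm cytokine, had 4.77 and 5.48 at 30 min and 5.01, 5.43, 5.90 and 5.30 at 2 h, a difference of 0.28 ± 0.29 (adjusted p = 0.980, limma), with 0.23 in pair 1 and -0.050 in pair 2. Both 30 min values, and 3 of the 4 values at 2 h, lay below the non-wounded range of 5.59 to 6.04. Il1b had 5.06 and 4.05 at 30 min and 4.58, 4.43, 5.86 and 4.99 at 2 h; 30 min replicate 1 exceeded 3 of the 2 h samples, and the difference was 0.41 ± 0.42 (adjusted p = 0.980, limma), negative in pair 1 (-0.48) and positive in pair 2 (0.37). Il6 had 3.24 and 2.45 at 30 min and 3.18, 3.20, 3.08 and 4.17 at 2 h, a difference of 0.56 ± 0.36 (adjusted p = 0.980, limma), with -0.07 in pair 1 and 0.75 in pair 2. Across the 18 cytokines of this list, 7 were higher and 11 lower, the median was -0.06, and none was free of overlap in either direction.

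Of 32 early response transcription factors listed, 3 had a probe set with their symbol, so that the matched probe sets barely covered this class. The others may be absent from the array or among the probe sets without a symbol. Junb, an AP-1 subunit, had 7.04 and 9.54 at 30 min and 8.76, 9.69, 9.28 and 10.07 at 2 h, against 7.34 to 8.26 without wounding. Replicate 2 at 30 min was already within the range of the 2 h samples, whereas replicate 1 was below all non-wounded samples; the difference was 1.16 ± 0.61 (adjusted p = 0.980, limma), 1.73 in pair 1 and 0.16 in pair 2, and it was -0.08 when 30 min replicate 1 was left out.

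Receptors for cytokines showed smaller differences, 18 of 29 higher with a median of 0.10. Csf2ra, the ligand-binding chain of the GM-CSF receptor, had 3.67 and 4.03 at 30 min and a narrow 4.45 to 4.60 at 2 h, while non-wounded samples had 4.27 to 4.75. The 2 h samples thus lay within the non-wounded range and the 30 min samples below it; the difference was 0.69 ± 0.20 (adjusted p = 0.621, limma), with 0.79 in pair 1 and 0.57 in pair 2. Ifnar2, a chain of the type I interferon receptor, had 4.81 and 4.60 at 30 min and 5.11, 5.41, 5.57 and 6.31 at 2 h, a difference of 0.89 ± 0.30 (adjusted p = 0.965, limma), with 0.30 in pair 1 and 0.80 in pair 2. Havcr2, which encodes the immune checkpoint receptor TIM-3, had 4.99 and 4.43 at 30 min and 5.47, 5.29, 5.45 and 5.62 at 2 h, with 4.50 to 4.84 without wounding; all 2 h samples lay above both, and the difference was 0.75 ± 0.21 (adjusted p = 0.621, limma), with 0.48 in pair 1 and 0.86 in pair 2. Of 19 chemokine receptors 7 were higher and 12 lower (median -0.09), with Cx3cr1 wholly above and Xcr1 wholly below.

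Markers of the cells that the epidermis holds differed unequally between the times. Cd83, a surface marker of maturing dendritic cells, had 3.46 and 3.96 at 30 min and 4.25, 5.78, 5.98 and 6.56 at 2 h, with 3.76 to 4.36 without wounding. The difference was 1.93 ± 0.53 (adjusted p = 0.621, limma), with 0.79 in pair 1 and 1.82 in pair 2. Cd207, the Langerhans cell lectin langerin, had 6.57 and 7.99 at 30 min and 7.71, 8.85, 9.32 and 9.22 at 2 h; 2 h replicate 1 lay below 30 min replicate 2, so the times overlapped, but the like-numbered differences were 1.15 and 0.86. Over the group means the Cd207 difference was 1.50 ± 0.57 (adjusted p = 0.980, limma), above both like-numbered differences. With a term for the replicate number it was 0.99 ± 0.22 (adjusted p = 0.418, limma). In bulk tissue, a change in the number of cells of a type and a change in RNA per cell cannot be told apart. Of the 5 Langerhans and dendritic cell markers measured, 3 were higher and 2 lower. Their median was 0.25, but -0.04 after bringing samples to one median and standard deviation. Their summed level was 27.9 and 29.8 at 30 min and 29.1 to 33.9 at 2 h. This sum largely repeats Cd83 and Cd207, since the other higher member differed by 0.25 and the lowest by -0.19.

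The other marker lists overlapped between the times or nearly so, and their part in the results above was not tested. Of 8 keratinocyte markers, 7 were higher (median 0.36, but -0.02 at one median and standard deviation), with summed levels of 57.8 and 67.4 at 30 min and 57.0 to 69.4 at 2 h; Lgals7, a galectin of stratified epithelia, had 11.00 and 12.08 at 30 min and 11.26 to 12.29 at 2 h, and no keratin gene was among the 8. Of 6 T cell and DETC markers, 4 were higher and 2 lower, with summed levels of 24.8 and 23.6 against 23.3 to 26.9. Klrk1, which encodes NKG2D, had 3.12 and 2.37 at 30 min and 2.29 to 2.37 at 2 h. Since levels of different probe sets cannot be compared, these markers do not settle whether the RNA is of whole epidermis or of DETC. Neutrophil markers had summed levels of 29.2 in both 30 min samples and 29.7 to 30.2 at 2 h, above them in all 4 samples. Of the 7 markers, however, 4 were higher and 3 lower, and each overlapped between the times. The median member difference was 0.01 and the largest 0.91, so the separation of the sums may rest on a single marker. Summed levels were 33.0 and 31.1 against 31.7 to 33.0 for 8 monocyte and macrophage markers, 28.8 and 25.4 against 25.5 to 27.9 for 7 dermal fibroblast markers, and 19.4 and 17.8 against 17.7 to 19.3 for 5 endothelial markers. RMA gives no value of 0, and no detection call was used, so a low marker value is not evidence of absence.

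Enzymes that build glycans supplied the gene with the smallest p among those with a symbol. B4galt5, a galactosyltransferase that makes lactosylceramide for glycosphingolipids, had 3.82 and 4.43 at 30 min and 5.55, 4.94, 5.37 and 5.23 at 2 h, with 4.34 to 4.60 without wounding. All 2 h samples lay above all other samples of these groups, and replicate 1 was the highest of them, unlike in the chemokines. The difference was 1.15 ± 0.24, a 2.21-fold ratio (adjusted p = 0.475, limma), with 1.73 in pair 1 and 0.51 in pair 2. The list of 22 glycosphingolipid enzymes had 12 higher and 10 lower with a median of 0.03. On it, Neu3, the ganglioside sialidase of the plasma membrane, lay wholly below, at 2.75 and 2.94 at 30 min and 2.44 to 2.61 at 2 h, a difference of -0.32 ± 0.22 (adjusted p = 0.980, limma), with -0.14 in pair 1 and -0.33 in pair 2. B3galnt1 was also wholly below, at -0.32 ± 0.18, with -0.49 in pair 1 and -0.13 in pair 2.

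Csgalnact1, which starts chondroitin sulfate chains, had 4.79 and 6.02 at 30 min and 6.32, 6.47, 6.86 and 7.35 at 2 h. Non-wounded samples had 6.43 to 7.02, so the 30 min samples lay below them and the 2 h samples around them. The difference was 1.34 ± 0.39 (adjusted p = 0.621, limma), 1.52 in pair 1 and 0.44 in pair 2. Lgals1, the galectin that binds N-acetyllactosamine on T cells and matrix, behaved alike, with 5.46 and 6.05 at 30 min, 6.62, 6.91, 7.37 and 7.56 at 2 h, and 6.17 to 7.41 without wounding. Its difference was 1.36 ± 0.40 (adjusted p = 0.621, limma), with 1.16 in pair 1 and 0.85 in pair 2. Of the 42 heparan and chondroitin sulfate enzymes 22 were higher and 20 lower (median 0.01), and of the 8 galectins 5 were higher and 3 lower (median 0.26). The galectin median was 0.0059 in pair 1, 0.15 in pair 2 and -0.07 at one median and standard deviation. Csgalnact1 and Lgals1 were the single members without overlap in each list.

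Hyaluronan, a matrix polymer that swells wounded epidermis, is made by the synthases Has2 and Has3 from sugar nucleotides that include the product of Uap1. The hyaluronan list had 4 of 7 members higher and a median of 0.58, with 0.03 in pair 1 and 0.39 in pair 2. Has2 had 3.07 and 2.79 at 30 min and 3.10, 3.18, 4.04 and 3.69 at 2 h, a difference of 0.58 ± 0.32 (adjusted p = 0.980, limma), with 0.03 in pair 1 and 0.39 in pair 2. Has3 had 4.08 and 3.61 at 30 min and 4.06, 4.04, 4.94 and 6.52 at 2 h; a single sample, replicate 4, was far above the others, and the difference was 1.04 ± 0.60 (adjusted p = 0.980, limma), with -0.02 in pair 1 and 0.43 in pair 2. Hyal1, a hyaluronidase, lay wholly above, at 4.65 and 5.04 at 30 min and 5.35 to 5.52 at 2 h, inside the non-wounded range of 4.27 to 5.99. Cd44, the hyaluronan receptor, had 6.37 and 8.67 at 30 min and 6.54, 9.30, 9.21 and 10.04 at 2 h; its samples separated by number more than by time, with like-numbered differences of 0.17 and 0.63. Uap1 had 5.06 and 6.80 at 30 min and 5.97, 7.82, 7.66 and 8.20 at 2 h. Its times overlapped through replicate 1, yet the like-numbered differences were near-equal, at 0.91 and 1.02. Over the group means the difference was 1.48 ± 0.65 (adjusted p = 0.980, limma), above both. With a term for the replicate number it was 1.06 ± 0.26 (adjusted p = 0.418, limma).

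The other glycan lists had medians of 0.02 to 0.24, beside 0.05 over all genes; no list was tested against the rest. Of 27 N-glycan genes 17 were higher (median 0.24, with 0.0014 in pair 1, 0.06 in pair 2, and 0.03 for 2 h replicates 2 to 4 against 30 min replicate 2), and Mgat4b, which adds a branch to N-glycans, lay wholly below, at 6.12 and 6.40 at 30 min and 5.80 to 6.12 at 2 h. Of 31 O-glycan genes 19 were higher (median 0.06), with B3galt5, which builds type 1 chains, wholly above at 3.67 and 3.52 against 3.93 to 4.17, and Gcnt1, a branching enzyme of O-glycans, wholly below at 3.18 and 3.17 against 2.98 to 3.15. Of 31 sugar nucleotide genes 21 were higher (median 0.14), with Uxs1, which makes UDP-xylose, wholly below at 5.50 and 5.42 against 5.19 to 5.36. Sialic acid and fucose enzymes had a median of 0.05 (18 of 28 higher), lysosomal glycosidases and sulfatases 0.22 (13 of 18 higher; -0.05 in pair 1 and 0.07 in pair 2), and proteoglycan core proteins 0.02 (12 of 24 higher). For signalling families, medians were 0.01 for FGF, IGF and PDGF factors (12 of 23 higher), 0.21 for TGF-beta, BMP and activin factors (14 of 22; -0.14 in pair 1 and 0.17 in pair 2), -0.0012 for Wnt ligands and Frizzled receptors (14 of 28), 0.16 for Notch genes (11 of 15; -0.05 in pair 1 and 0.08 in pair 2) and -0.07 for C-type lectins and Siglecs (11 of 28).

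**Figure D3:**
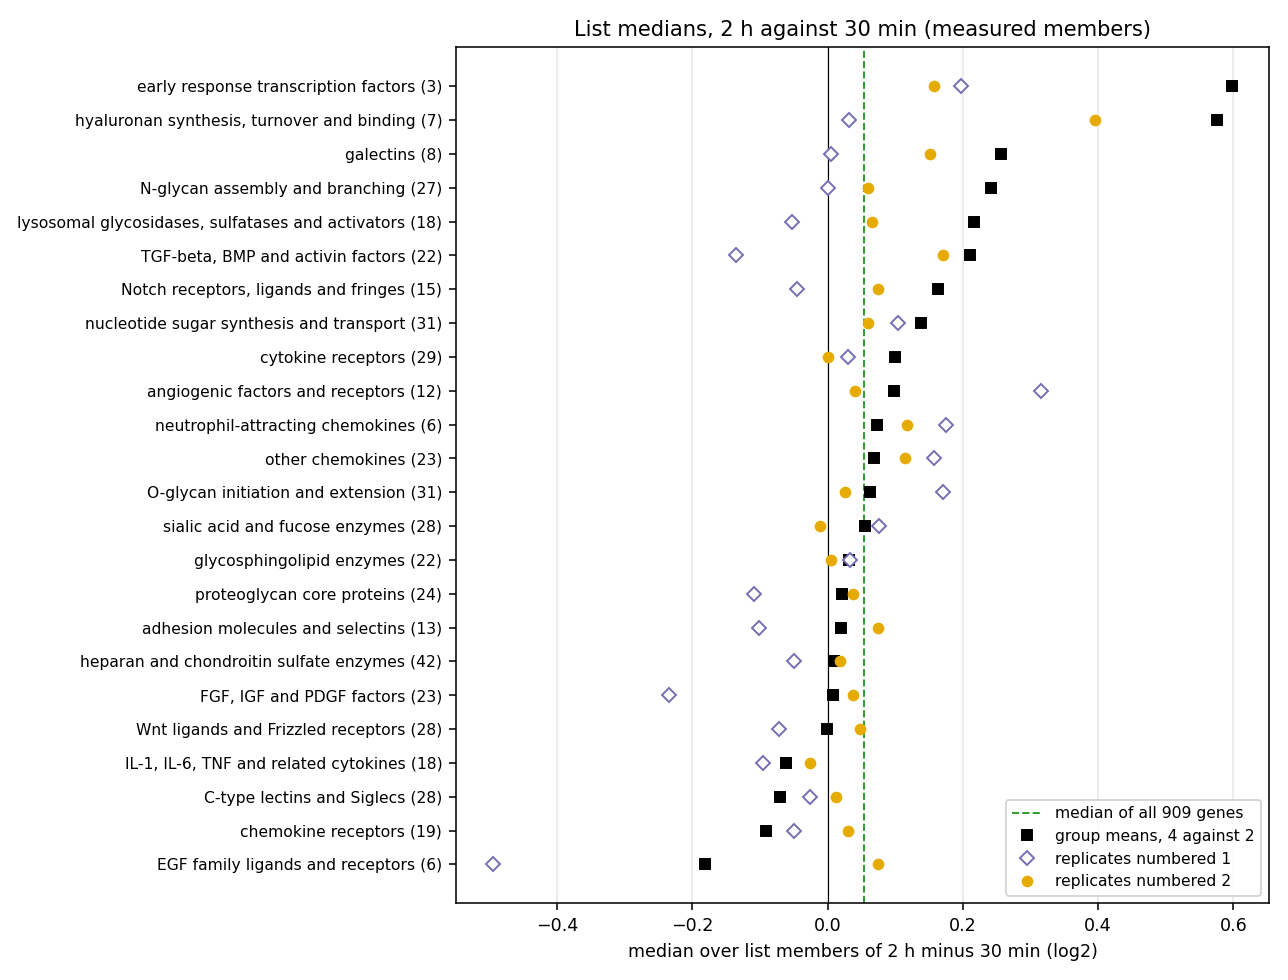
Median log2 difference (2 h minus 30 min, horizontal axis) over the measured members of each of the 24 gene lists; black squares are group means, open diamonds the samples numbered 1 and yellow circles those numbered 2, and the dashed line is the median of all 909 genes, 0.05. The hyaluronan list has a high median of the group means (0.58), and for many lists the diamonds and circles lie on opposite sides of 0.

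The genes with the smallest p among those lower at 2 h were Xcr1, Cd164l2, Cd22, Cxcl15, Il5, Mgat4d, Angptl7, Klrk1, Ccr1l1, Galt, Fgfr1 and Cd93, with differences of -0.97 to -0.41 and adjusted p-values of 0.980 each in limma. In all 12, 30 min replicate 1 was above 30 min replicate 2, whereas it was above in 2 of the 12 highest genes and below in the others, so the same sample was at the outer end on both sides. In all 12 lower genes the pair 1 difference was larger in size than the pair 2 difference; pair 1 ran from -1.51 to -0.61 and pair 2 from -0.41 to 0.0075. In none of the 12 did 30 min replicate 1 lie inside the non-wounded range, and 9 of the 12 had a level below the array's median. Xcr1, the receptor of cross-presenting dendritic cells, had 3.49 and 2.82 at 30 min and 2.41, 2.40, 2.64 and 2.53 at 2 h, a difference of -0.66 ± 0.23, and was the gene with the smallest p on this side (unadjusted p = 0.0175). Il5, the eosinophil cytokine, had 4.67 and 2.86 at 30 min and 3.16, 2.81, 2.82 and 2.78 at 2 h; the difference was -1.51 in pair 1 and -0.05 in pair 2. Fgfr1, a fibroblast growth factor receptor, had 5.90 and 4.35 at 30 min and 4.81, 4.35, 4.14 and 4.40 at 2 h, with -1.09 in pair 1 and 0.0015 in pair 2. Without 30 min replicate 1 the differences of Il5, Mgat4d, Ccr1l1 and Fgfr1 were positive, at 0.03 to 0.09.

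The probe sets without a symbol held the smallest p of the array. They entered no gene or marker list. Counts, medians and summed levels of the lists leave them out, even where one of them measures a listed gene. NM_020008.1_psr1_at had 4.54 and 5.04 at 30 min and 5.94, 7.19, 7.51 and 7.43 at 2 h, with 4.61 to 4.97 without wounding. The difference was 2.23 ± 0.41 (adjusted p = 0.370, limma), with 1.40 in pair 1 and 2.16 in pair 2. uc007bsm.1_psr1_s_at had 3.08 and 4.35 at 30 min and 4.95, 7.04, 8.30 and 7.85 at 2 h, a difference of 3.32 ± 0.80 (adjusted p = 0.475, limma). Ccl20 had 3.48 and 4.61, then 5.56, 7.55, 8.78 and 8.44 in the same samples. Whether these probe sets measure separate transcripts was not tested. On the lower side, uc008goa.1_psr1_a_at had 5.69 and 5.43 at 30 min and 5.25, 5.09, 5.16 and 5.06 at 2 h, a difference of -0.42 ± 0.19 with near-equal like-numbered differences of -0.44 and -0.34 (adjusted p = 0.980, limma).

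The samples labelled 0 h and 4 h are both numbered 1, a single sample each, so a course through all times can be drawn through the samples numbered 1 alone and has no replicate check. In it, Ccl20 had 3.91 in the non-wounded sample and then 3.50, 3.48, 5.56 and 7.30 through the successive times, and Cxcl1 had 3.62 and then 3.34, 3.19, 4.09 and 6.30. Both were thus higher at 4 h than at 2 h in these samples. Cxcl2 differed little over the last times (3.83 at 2 h and 3.94 at 4 h), Has2 had 3.10 at 2 h and 4.70 at 4 h, and Angptl4 had 6.36 and 7.38. Csgalnact1 and Lgals1 had their lowest values at 30 min: Csgalnact1 had 6.43, 6.38, 4.79, 6.32 and 6.11, and Lgals1 had 7.36, 7.88, 5.46, 6.62 and 6.05. Lgals1 at 4 h was thus again below its non-wounded and 2 h values.

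**Figure D4:**
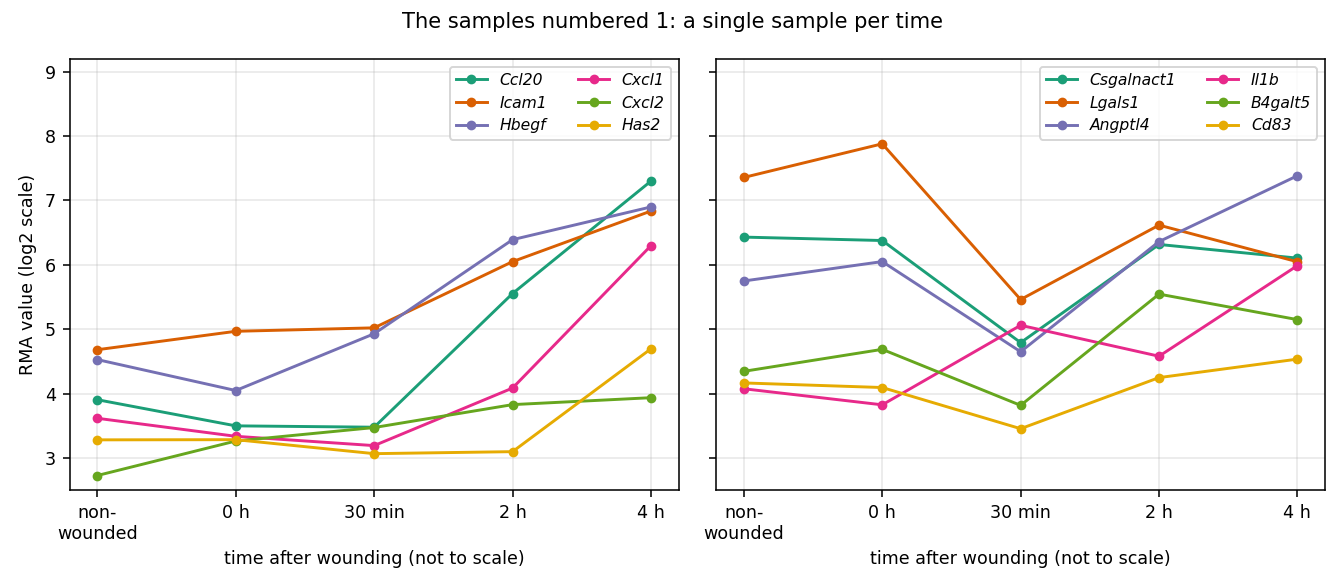
RMA values (log2 scale) of 12 genes in the samples numbered 1, a single sample per time (non-wounded, then the times after wounding in order; spacing not to scale); lines join samples for reading and are not repeated measures. Left, Ccl20 and Cxcl1 are higher at 4 h (7.30 and 6.30) than at 2 h (5.56 and 4.09); right, Csgalnact1 and Lgals1 have their lowest points at 30 min (4.79 and 5.46).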

How the data were processed

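The authors deposited log2-scale values from an Affymetrix array, processed with RMA per the submitters' processing notes; the array design, scanner files and RMA version were not given in the sources used here. Groups and replicate numbers came from the titles. All 12 samples entered 1 limma fit (limma 3.58.1, R 4.3.3) of group means, so that groups shared an estimate of the spread; p-values were adjusted by Benjamini-Hochberg over 1246 probe sets, with a threshold of 0.05 and no filter on low values. The fit was also run on simulated data whose noise was independent between samples. Measured samples with the same replicate number had a consensus correlation of 0.579, which that simulation lacked, so it does not show how the fit performs here. Members, lists and named genes were chosen with earlier results of these data known.

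Genes were named from probe sets with 1 symbol, 1 per gene (highest mean): the 12 per direction with the smallest p, those 1 or more in both like-numbered pairs, up to 4 members per list with the smallest p (of these, the text names those without overlap between the times), 20 genes listed whatever their value, and unnamed probe sets among the first 5 per direction. Ccl25, Cx3cr1 and Gcnt1 lie outside the rule and were named after their values were seen.

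Deviations from group means correlated between like-numbered samples, at 0.818 and 0.780 for 30 min and 2 h. For non-wounded and 2 h they correlated at 0.297 to 0.796, and all pairs were above the limit of 0.1. With 2 samples at 30 min, the deviations are exact negatives of each other, so 0.818 and 0.780 are not separate checks. Deviations cancel within a group, so the offset of the samples numbered 1 alone can make the other numbers correlate. Passing the limit therefore cannot show that samples with the other numbers are paired. The pairing comes from the titles' numbers. Alternatives changed the block, scaling, filter, prior and samples. An array measures no depth; the 2 samples at 30 min limit the precision.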

Additional observations from a re-analysis of the deposited data

Results flagged for a closer look

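In 94 groups of 4 samples (2 h and non-wounded, for the 47 named genes and probe sets), a sample's gap to its nearest neighbour, divided by the group's range, passed Dixon's critical value for 4 samples in 11; chance gives about 1 in 20. Of these samples, 7 were replicate 1. At 2 h, replicate 1 stood apart for Cxcl2 (ratio 0.939, low), Lgals7 (0.979, low), Il5 (0.888, high), Mgat4d (0.939, high) and Ccr1l1 (0.836, high). Replicate 2 stood apart for Angptl4 (0.926, low) and replicate 4 for Il6 (0.889, high). In non-wounded skin, replicate 1 stood apart for Xcr1 (0.865, high) and Cd93 (0.883, high), and replicate 3 for B4galt5 (0.845, high) and Galt (0.948, low). The differences of Cxcl2 and Angptl4 between the times with and without the sample in question, or by pair, stand beside their values above.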

How the results depend on the processing

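The number of probe sets past the adjusted threshold was 0 in the main analysis and 0 with the replicate block (a term for the replicate number). The block's smallest adjusted p was 0.206, and it changed no other call. The number was also 0 when only the 6 compared samples were fitted. There, limma's adjusted p for B4galt5, Ccl20, Icam1 and Hbegf was 0.984, against 0.475 in the main fit of all 12 samples. It was 1 with the number as a random block, with a term for samples numbered 1, and at one median and SD, alone or with the block (NM_020008.1_psr1_at each time); 2 after repeated quantile normalization (with Hbegf, 2.24, adjusted p = 0.0244) and in samples numbered 2 to 4 alone (with Cxcl2, 3.51, adjusted p = 5.85e-05). Leaving out 1 of the 2 h samples gave 0 to 9, with 9 without replicate 1 (Cxcl2, Ccl20, Icam1, Cd83, Vegfa, Hbegf, Cxcl1 and 2 without a symbol). Leaving out 30 min replicate 2 sets 4 samples against 1, so differences alone are given. They included 2.33 for uc009dgk.1_psr1_a_at, 2.03 for Tgfb1 and -2.09 for uc007yvu.1_psr1_at. Probe sets at an unadjusted p under 0.05 in limma numbered 27 in the main fit and 67 with the replicate block. They numbered 76 with the random block, 87 with a term for samples numbered 1, 23 in the 6 compared samples and 17 with array weights.

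Probe sets wholly above (47) numbered 366 in samples numbered 2 to 4 alone, where fewer samples have to separate, and 51 to 301 when a sample was left out (167 without 2 h replicate 1, 232 and 301 without 30 min replicates 1 and 2). Those wholly below (21) numbered 60 after quantile normalization, 61 after median centring, 104 at one median and SD and 270 in samples numbered 2 to 4 alone, and 23 to 399 when a sample was left out (130, 147 and 399 without the same samples).

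Of 879 values of named genes under alternatives, 852 kept direction and side of the threshold, 17 passed it and 10 reversed. None of the 228 values of the 12 highest genes reversed, but this was largely fixed by their choice. Their times did not overlap, so leaving out a sample cannot turn the sign, and some alternatives leave the difference unchanged. Over leave-one-out runs, Il5 ran from -1.77 to 0.030, Mgat4d from -1.97 to 0.040, Ccr1l1 from -1.46 to 0.087, Fgfr1 from -1.47 to 0.072, Il1a from -0.069 to 0.64, Junb from -0.085 to 2.41 and Lgals7 from -0.057 to 1.03, with the sign turned without 30 min replicate 1. Il1b ran from -0.098 (without 30 min replicate 2) to 0.91. Lgals7 was -0.21 at one median and SD, and Cd22 0.0045 in samples numbered 2 to 4 alone. The cause was not tested.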

Other observations

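Some genes outside the naming rule, chosen after their values were seen, differed between the like-numbered pairs or in replicates 2 to 4 alone. Il1f9, an interleukin-1 family gene, had 5.15 and 6.13 at 30 min and 5.57, 5.12, 5.46 and 4.37 at 2 h; its times overlapped, its difference was 0.43 in pair 1 and -1.01 in pair 2, and its adjusted p was 0.980 in limma. Fut1, a fucosyltransferase of H antigen synthesis, had 4.90 and 5.61 at 30 min and 5.13, 4.84, 4.58 and 4.62 at 2 h, with 0.23 in pair 1 and -0.77 in pair 2. Fst, the activin-binding protein follistatin, had 5.06 and 5.54 at 30 min and 3.93, 6.80, 7.04 and 6.25 at 2 h, with -1.12 in pair 1 and 1.26 in pair 2. Tgfb1 had 4.84 and 6.72 at 30 min and 6.59, 6.76, 6.77 and 7.35 at 2 h, with 1.75 in pair 1 and 0.04 in pair 2. Csf2rb, the shared signalling chain of the GM-CSF receptor, had 5.14 and 5.30 at 30 min and 4.83, 5.95, 6.11 and 6.55 at 2 h. Ccr6, the receptor of Ccl20, was level, with 3.99 and 4.04 at 30 min and 3.94 to 4.15 at 2 h.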
